A study of Mus musculus with 6 samples.

Results

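Sphingosine-1-phosphate (S1P) is a signaling lipid made inside cells from sphingosine and sensed at the cell surface by a family of G protein-coupled receptors. The sphingosine kinases, encoded by *Sphk1* and *Sphk2*, produce it, and the S1P lyase, encoded by *Sgpl1*, degrades it irreversibly. In the vasculature, S1P signaling through S1PR1 supports the assembly of endothelial junctions and the maturation of new vessels, and mouse embryos without *S1pr1* die in mid-gestation with bleeding. The 5 receptor genes *S1pr1* to *S1pr5*, the 2 kinases and the lyase were listed as the 8 genes to be examined. Their probe sets were those that the annotation of the array paired with exactly 1 gene symbol, and that symbol had to be one of the 8. Of 77669 probe sets with 1 symbol, 24 met this rule, and they covered 7 of the 8 genes. These were *S1pr1* (4 probe sets), *S1pr2* (2), *S1pr3* (2), *S1pr5* (3), *Sphk1* (4), *Sphk2* (6) and *Sgpl1* (3). *S1pr4*, a receptor known from lymphoid cells, was not analysed here because no probe set carried its symbol alone.

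Mouse embryos of stages E7.5 and E8.5 supplied the ETV2::GFP+FLK1+CD41- cells, which filled 3 arrays per stage, each with amplified RNA of 50 sorted cells. All embryos came from ICR females mated with males of the ETV2::GFP reporter line, in which GFP marks cells that express *Etv2*, a transcription factor of endothelial and blood specification. FLK1 is the VEGF receptor encoded by *Kdr*, and gating out CD41 removes cells already committed to blood. The paper takes its E8.5 cells from the embryo proper and calls the E7.5 population extra-embryonic, and the effects of age and of location cannot be told apart. Values are log2 signals of Affymetrix exon probe sets after RMA, a procedure that corrects background and equalizes the distributions of the arrays. The signal of a gene is the median over its probe sets, and every stage difference is E8.5 minus E7.5 in log2 units, with its standard error (SE).

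Array medians lay between 6.98 and 7.07. Across the 16523 genes measured, arrays of the same stage correlated at 0.876 to 0.896 and arrays of different stages at 0.855 to 0.881. The summed signal of 12 endothelial markers, *Kdr* and *Cdh5* among them, ranged on the log2 scale from 12.54 to 13.26 at E7.5 and from 13.08 to 13.32 at E8.5. In that list 4 genes were higher and 1 lower at E8.5 at an unadjusted p under 0.05 from limma, a linear model that shares variance information between genes, against 3.11% and 4.68% of all genes, and none passed after adjustment. All E8.5 arrays lay above all E7.5 arrays in 5 of the 12 (*Cd34*, *Egfl7*, *Emcn*, *Icam2* and *Tie1*) and below them in 1 (*Flt1*), against 7.1% and 7.12% of all genes. The summed signal of 7 primitive erythroid markers lay between 10.26 and 10.59 at E7.5 and between 9.33 and 9.55 at E8.5, so that these ranges did not overlap. Only *Hbb-bh1*, an embryonic globin, passed there, with a lower signal at E8.5 (limma adjusted p = 0.046). It did not pass when any of 4 arrays was left out, when no gene at all passed. *Gata1*, *Epor* and *Tfrc* were also more than 2-fold lower in mean (with *Hbb-bh1* 4 of the 7, against 4.79% of all genes). Of these 4, *Epor* and *Tfrc* overlapped between the stages. *Hbb-bh1* and *Gata1* had all E8.5 arrays below all E7.5 arrays, 2 of the 7 against 7.12% of all genes. *Hba-x*, *Alas2* and *Klf1* differed by 0.041, 0.11 and -0.11, and each overlapped between the stages. The summed signal of 5 megakaryocyte and leukocyte markers ran from 9.62 to 9.94 at E7.5 and 9.28 to 9.54 at E8.5. None of them passed the test, and only *Itga2b*, the CD41 gene, did not overlap (E8.5 below, as in 7.12% of all genes). The summed ranges of the 7 cardiac, 8 visceral endoderm and 4 epiblast markers overlapped. At E8.5 the cardiac sum ran from 9.91 to 12.68. *Tnnt2*, *Actc1* and *Tnni1* read 11.08, 9.96 and 9.95 on E8.5 replicate 2, and 6.38 to 7.95 on the other E8.5 arrays. *Nkx2-5* was not highest there, and *Myl7* differed by -2.55 without overlap (limma adjusted p = 0.56).

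Among the 7 genes, *S1pr1* had the largest stage difference, with a higher mean signal at E8.5. It was also the only one whose means differed more than 2-fold (2.72% of all genes were that much higher at E8.5 and 4.79% that much lower), and the arrays of the other 6 genes overlapped between the stages. After Benjamini-Hochberg adjustment over all 16523 genes, none of the 7 had an adjusted p under 0.05 from limma, in a comparison where 0.109% of all genes did. At an unadjusted p under 0.05, 1 of the 7 was higher at E8.5 (*S1pr1*) and none was lower, against 3.11% and 4.68% of all genes. A gene-by-gene test with equal variances, which shares no information between genes (the unmoderated test), also gave 1 at an unadjusted p under 0.05 and none after adjustment. The same gene was the only one of the 7 whose groups did not overlap, with all E8.5 arrays above all E7.5 arrays, as in 7.1% of all genes, and none had all E8.5 arrays below, against 7.12%. The median difference was 0.029 over the 7 genes and 0.0035 over all genes. Because each array holds pooled cells, fewer cells of a type and less RNA per cell cannot be told apart.

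**Figure D1:**
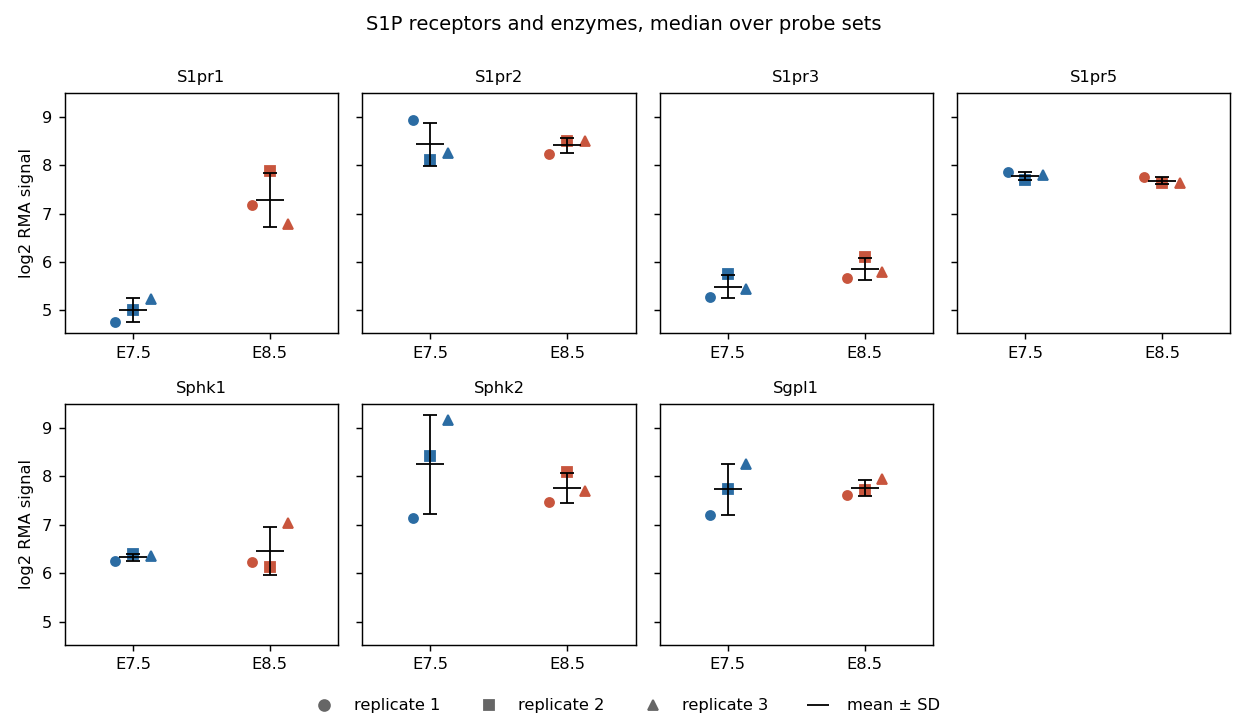
Log2 RMA signal (vertical axis) of 7 S1P genes at E7.5 and E8.5 (horizontal axis), as the median over the probe sets of each gene. Points are arrays, with a symbol for each replicate number, and bars are the mean ± SD of 3 arrays. The E8.5 arrays of *S1pr1* lie from 6.78 to 7.88 and its E7.5 arrays from 4.75 to 5.24, while the groups overlap in the other 6 genes.

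*S1pr1* encodes the receptor that couples to inhibitory G proteins, activates Rac and favors endothelial barrier function. Its log2 signal was 4.75, 5.02 and 5.24 on the 3 E7.5 arrays and 7.18, 7.88 and 6.78 on the 3 E8.5 arrays. The lowest E8.5 array thus lay more than 1 log2 unit above the highest E7.5 array. E7.5 arrays averaged 5.00 ± 0.24 (SD, n = 3), and those of E8.5 averaged 7.28 ± 0.56 (SD, n = 3). The stage difference of 2.28 (SE 0.32, 95% confidence interval 1.50 to 3.06), or 4.85-fold, did not pass the adjusted threshold (limma adjusted p = 0.11). By p, it was the 49th of the 16523 genes. An exact permutation test of 3 arrays against 3 gave p = 0.1, two-sided, which is the smallest p it allows. No detection calls accompany these values, so whether the E7.5 signal lay above background is unknown, and the true difference could be larger or smaller than measured. The summed erythroid and the summed megakaryocyte and leukocyte markers, given above, were lower on the E8.5 arrays. Within these lists only *Hbb-bh1*, *Gata1* and *Itga2b* did not overlap between the stages. Of the 12 endothelial markers, those with an unadjusted p under 0.05 from limma were *Emcn* (2.58), *Icam2* (1.93), *Cd34* (1.41), *Tie1* (1.27) and *Flt1* (-1.21). The limma adjusted p was 0.062 for *Icam2* and 0.42 to 0.59 for the others named. The remaining markers of the list differed by -0.73 (*Kdr*) to 1.26 (*Cdh5*). The part of these markers in the difference of *S1pr1* was not tested.

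The 4 *S1pr1* probe sets gave unlike stage differences. Probe set 4585443 read 4.80, 3.98 and 5.02 at E7.5 and 7.44, 9.56 and 6.70 at E8.5, differing by 3.30 (SE 0.78). Probe set 4985737 read 4.71, 5.15 and 5.46 against 7.16, 9.73 and 6.86, differing by 2.81 (SE 0.80). In both, E8.5 replicate 2 was far above the other E8.5 arrays, and leaving it out gave 2.47 and 1.90. Probe set 5034290 had 4.37, 4.88 and 4.76 at E7.5 and 5.49, 5.38 and 7.16 at E8.5, differing by 1.34 (SE 0.53). There the high E8.5 array was replicate 3, without which the difference was 0.76. In each of these 3 probe sets all E8.5 arrays lay above all E7.5 arrays. Probe set 5054631 differed from them, with 6.73, 6.59 and 6.75 at E7.5 and 7.21, 6.21 and 6.46 at E8.5. Its groups overlapped, and the difference was -0.065 (95% confidence interval -0.82 to 0.69), or -0.36 and 0.14 when replicate 1 or 2 of E8.5 was left out.

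**Figure D2:**
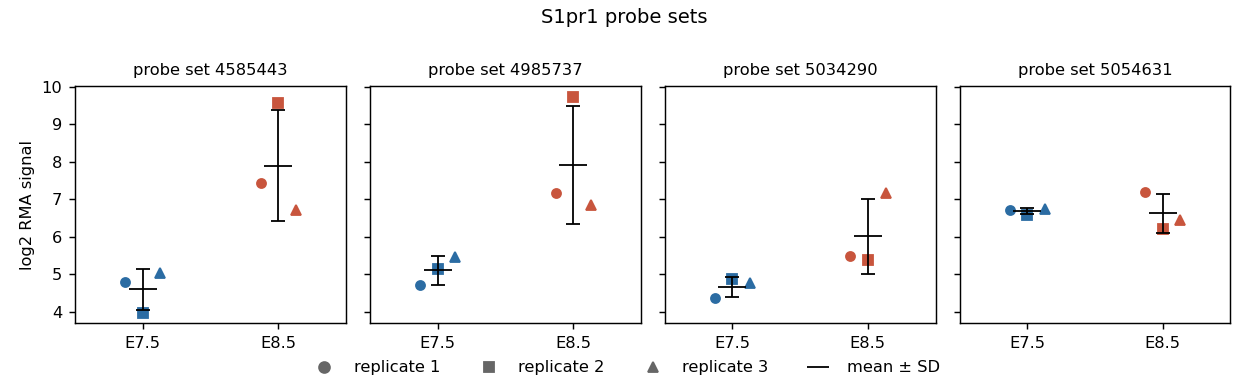
Log2 RMA signal (vertical axis) of the 4 *S1pr1* probe sets at E7.5 and E8.5 (horizontal axis). Points are arrays, with a symbol for each replicate number, and bars are the mean ± SD of 3 arrays. In 3 probe sets all E8.5 arrays lie above all E7.5 arrays, and in probe set 5054631 they overlap.

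The gene-level value of *S1pr1* depended on how its probe sets were combined. With 4 probe sets the median is the mean of the middle pair on each array, and the mean over all 4 gave 1.85 (SE 0.29, limma adjusted p = 0.15). Taking for each gene only the probe set with the highest mean over the 6 arrays picked 5054631 and gave -0.065. The higher signal thus rests on the other 3. At E8.5 alone the mean of 5054631 (6.62) was below those of 4585443 (7.90) and 4985737 (7.92). Each probe set was also expressed relative to the mean of the other probe sets of its gene on the same array, a comparison chosen after the values had been seen. Probes differ in brightness, so only the stage difference of such a relative value can be read, not its size. For probe set 5054631 the relative values were 2.10, 1.91 and 1.67 at E7.5 and 0.51, -2.01 and -0.45 at E8.5, without overlap. The relative difference between the stages was -2.55 (SE 0.64, limma adjusted p = 0.51 over 74261 probe sets). None of the 24 S1P probe sets passed in this comparison, in which 0.0175% of all probe sets did. Where the probe sets lie in the gene was not established here.

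The stage difference of *S1pr1* was set against that of each of the 6 other genes, a comparison made after the values had been seen and given as a description with no test. It exceeded that of *S1pr2* by 2.30 log2 units, that of *S1pr3* by 1.90 and that of *S1pr5* by 2.38. Against the enzymes, it exceeded that of *Sphk1* by 2.15, of *Sphk2* by 2.77 and of *Sgpl1* by 2.25. These 6 values share the *S1pr1* arrays.

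The genes whose values over the 6 arrays followed *S1pr1* most closely were *Pitx1*, *Gimap4* and *Cd93*. After each gene was centred on its own mean, their root mean square differences from *S1pr1* were 0.16, 0.32 and 0.34 log2 units. *Pitx1*, a homeobox gene of hindlimb and pituitary development, differed by 2.38 between the stages. *Gimap4*, a GTPase gene known from lymphocytes, had 2.09. *Cd93*, a transmembrane receptor gene of endothelial cells, had 1.98 and rested on 1 probe set. The likeness is a description of 6 arrays among 16523 genes.

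The arrays of *S1pr2*, *S1pr3* and *S1pr5* overlapped between the stages at the gene level, and none of these genes passed the test. *S1pr2* encodes a receptor that opposes the Rac response of S1PR1. Its signal was 8.92, 8.10 and 8.25 at E7.5 and 8.22, 8.504 and 8.49 at E8.5, so that E7.5 replicate 1 was the highest of all 6 arrays. The stages differed by -0.020 (95% confidence interval -0.66 to 0.62, limma adjusted p = 0.99), or by 0.23 when E7.5 replicate 1 was left out. Its probe sets 4393995 and 4921118 differed by -0.15 and 0.11. The former became 0.23 when E7.5 replicate 1 was left out, and the latter -0.048 when replicate 2 of that stage was.

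*S1pr3* encodes a receptor of vascular cells that couples to several G protein families. Its signal was 5.27, 5.74 and 5.44 at E7.5 and 5.67, 6.11 and 5.79 at E8.5, with 1 E7.5 array inside the E8.5 range. Between the stages it differed by 0.37 (95% confidence interval -0.15 to 0.89, limma adjusted p = 0.73). Both of its probe sets had a higher mean at E8.5. Probe set 5423661 read 3.09, 3.58 and 3.32 against 3.73, 4.11 and 3.79 without overlap, differing by 0.55 (SE 0.23, limma adjusted p = 0.72). All of these signals but that of E8.5 replicate 2 lay below the 5th percentile of their array (3.95 to 4.07). The size of that difference therefore cannot be read. Probe set 5373410 overlapped between the stages, with a difference of 0.20 that was 0.067 without E8.5 replicate 2. It alone remained when only probe sets with a mean above 5 were kept, and the gene then differed by 0.20. Differences between dim signals come out too small after RMA, so a narrow interval does not bound a change in the transcript.

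*S1pr5*, a receptor gene known from natural killer cells and oligodendrocytes, had a gene value that varied little at either stage. Its signal was 7.86, 7.69 and 7.79 at E7.5 and 7.76, 7.64 and 7.63 at E8.5. SDs were 0.087 (E7.5) and 0.072 (E8.5), with n = 3 each. On every array the median was probe set 4498681, so these SDs are those of 1 probe set. Probe set 5052864 had SDs of 0.36 (E7.5) and 0.068 (E8.5), and 4777832 had 0.13 and 0.20. The stage difference of *S1pr5* was -0.10 (95% confidence interval -0.49 to 0.28, limma adjusted p = 0.90). Its 3 probe sets differed by -0.31, -0.10 and 0.26, and each overlapped between the stages. The first (5052864) was -0.11 without E7.5 replicate 1, the second (4498681) -0.064 without the same array, and the third (4777832) 0.15 without E8.5 replicate 3. Over all genes measured, 55.1% had a 95% confidence interval that held no difference of 2-fold or more, as did 5 of the 7 S1P genes. The exceptions were *S1pr1* and *Sphk2*.

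The kinases differed in how far their arrays spread. *Sphk1* encodes the mainly cytosolic kinase that can act at the plasma membrane. Its signal was 6.25, 6.39 and 6.35 at E7.5 and 6.23, 6.13 and 7.03 at E8.5, where replicate 3 was the highest of all 6 arrays. The mean was 0.13 higher at E8.5 (95% confidence interval -0.54 to 0.80, limma adjusted p = 0.94). Without E8.5 replicate 3 it turned to -0.15.

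Of the 4 *Sphk1* probe sets, 1 had lower values at E8.5 without overlap. Probe set 4412233 read 4.41, 3.90 and 4.19 at E7.5 and 3.37, 3.06 and 3.31 at E8.5. That is a difference of -0.92 (SE 0.23, limma adjusted p = 0.47). Its E8.5 signals lay below the 5th percentile of each array (3.95 to 4.07), so the size of its difference cannot be read. Relative to the other 3 probe sets of the gene its difference was -1.04 (SE 0.29, limma adjusted p = 0.56). The other 3 probe sets overlapped between the stages, with differences of 0.41, 0.10 and -0.15. The first of these (4337692) was 0.058 without E8.5 replicate 3. Over the arrays left out in turn, the second (4807451) ranged from 0.022 (without E7.5 replicate 3) to 0.20 (without E7.5 replicate 1) and the third (5022739) from -0.36 (without E8.5 replicate 3) to -0.0086 (without E8.5 replicate 2).

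*Sphk2* encodes the kinase that is also found in the nucleus and mitochondria. It varied more than any other of the 7 genes at E7.5, with 7.15, 8.43 and 9.16, against 7.47, 8.08 and 7.71 at E8.5. SDs were 1.02 (E7.5) and 0.31 (E8.5), with n = 3 each, and the E8.5 arrays lay inside the E7.5 range. The stage difference of -0.49 had a 95% confidence interval of -1.75 to 0.76 (limma adjusted p = 0.85), which holds both equal signal and a 2-fold lower signal. It was -1.04 when E7.5 replicate 1 was left out and -0.037 when replicate 3 of that stage was.

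The 6 *Sphk2* probe sets split evenly, with 3 higher and 3 lower in mean at E8.5 and differences from -3.11 to 1.10. Probe set 5089601 had the widest spread, with 3.99, 10.80 and 8.15 at E7.5 and 5.05, 4.53 and 4.04 at E8.5. E7.5 replicate 1 lay below all other arrays there, while E7.5 replicates 2 and 3 lay above all E8.5 arrays. The difference of -3.11 (SE 1.68) became -4.93 when replicate 1 of that stage was left out and -1.53 when replicate 2 was. Relative to the other probe sets of the gene it was -3.35 (SE 1.33, limma adjusted p = 0.75). Probe set 4325719 read 7.35 on E7.5 replicate 1 and from 10.98 to 12.47 on the other 5 arrays. Leaving out that array turned its difference from 1.03 to -0.57. Probe set 5294107 was high only on E7.5 replicate 3, at 10.22 against 6.96 to 7.73 on the others, and probe set 4530295 only on E8.5 replicate 2, at 7.90 against 4.66 to 5.14. Their differences of -0.70 and 1.10 became 0.38 and 0.15 without those arrays. Probe set 4627329, at 10.17 on E7.5 replicate 3 and 7.68 to 8.26 elsewhere, went from -0.98 to -0.32 without it, and probe set 4686893 differed by 0.77, and by 0.47 or 1.12 when replicate 1 or 2 of E7.5 was left out.

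**Figure D3:**
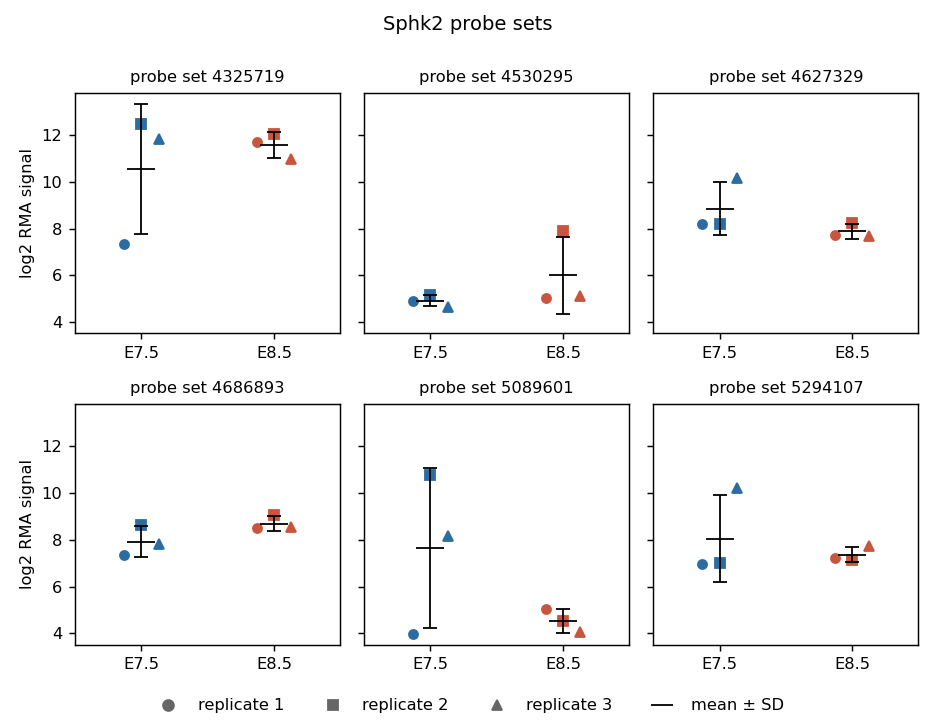
Log2 RMA signal (vertical axis) of the 6 *Sphk2* probe sets at E7.5 and E8.5 (horizontal axis). Points are arrays, with a symbol for each replicate number, and bars are the mean ± SD of 3 arrays. E7.5 replicate 1 lies apart from the other arrays in probe set 4325719, and E7.5 replicates 2 and 3 lie above all other arrays in probe set 5089601.

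*Sgpl1* encodes the lyase of the endoplasmic reticulum that cleaves S1P for good. Its signal was 7.19, 7.74 and 8.25 at E7.5 and 7.61, 7.72 and 7.95 at E8.5, with the E8.5 arrays inside the E7.5 range. The stages differed by 0.029 (95% confidence interval -0.70 to 0.75, limma adjusted p = 0.99). The sign turned when E7.5 replicate 1 (-0.24) or E8.5 replicate 3 (-0.065) was left out. Probe set 4450466 was slightly higher at E8.5 on every array, with 8.87, 9.04 and 9.13 against 9.21, 9.28 and 9.23, differing by 0.22 (SE 0.19, limma adjusted p = 0.83). The other probe sets, 4334092 and 4769351, overlapped between the stages, and the difference of 0.25 in the latter was 0.084 without E8.5 replicate 2. Probe set 4334092 was the median on every array, so its values are those given for the gene.

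Over the 24 probe sets, none had an adjusted p under 0.05 from limma, where 0.0824% of all 77669 did. An unadjusted p under 0.05 was reached by 3 with a higher signal at E8.5, all of *S1pr1*, and by 1 with a lower signal, *Sphk1* 4412233, against 2.65% and 4.34% of all probe sets. The unmoderated test gave 4 at an unadjusted p under 0.05 and none after adjustment. All E8.5 arrays lay above all E7.5 arrays in 5 probe sets, against 6.59% of all probe sets. These were 3 of *S1pr1*, 1 of *S1pr3* (the dim 5423661) and 1 of *Sgpl1*. The reverse held in 1, against 7.33%. A higher mean at E8.5 was seen in 15 of the 24, against 48.7% of all probe sets, and a lower mean in 9. Probe sets of the same gene share its transcripts and are not replicates of a stage.

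**Figure D4:**
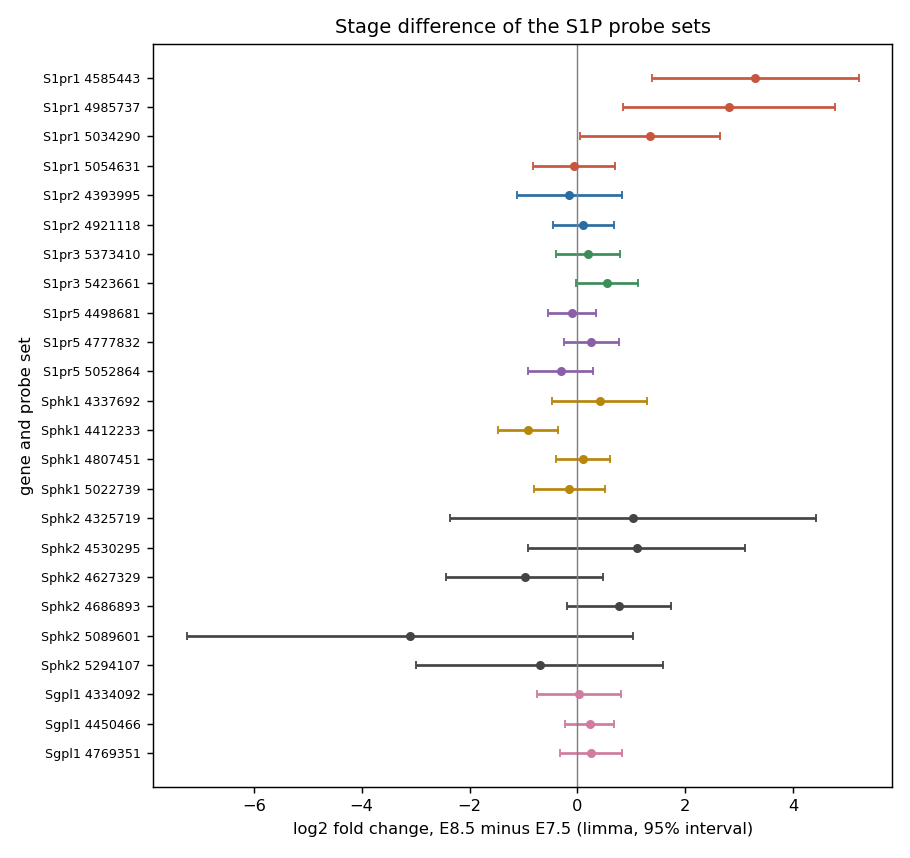
Log2 fold change, E8.5 minus E7.5 (horizontal axis), of the 24 S1P probe sets, listed by gene and probe set number on the vertical axis. Points are limma estimates and bars their 95% confidence intervals. The intervals of 3 *S1pr1* probe sets lie wholly above 0 and that of *Sphk1* 4412233 lies wholly below 0, and the widest is that of *Sphk2* 5089601.

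The wider pathway was described with 66 further genes, of which 60 had a probe set. None of the 60 had an adjusted p under 0.05 from limma. At an unadjusted p under 0.05, 4 were higher and 3 lower at E8.5, against 3.11% and 4.68% of all genes. The unmoderated test gave 5 at that threshold, either direction, against 1216 of all 16523 genes (*Acer3*, *Cerk*, *Cers3*, *Grk5* and *Sptssa*) and none after adjustment. The median difference over the 60 was 0.011. More than 2-fold higher in mean were 4 genes (*Plpp1*, *Plpp3*, *Sptlc2* and *Sptssa*), against 2.72% of all genes. More than 2-fold lower were 3 (*Gna11*, *Gna12* and *Gnaq*), against 4.79%. Of the genes in these counts, *Cers3*, *Gna11* and *Plpp1* were outside the rule for named genes and were chosen after their values were seen.

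Transport and removal of S1P come after its synthesis. Of 5 genes of S1P transport and carriage, none passed at an unadjusted p under 0.05, and all differed by less than 2-fold. *Spns2*, the S1P exporter of endothelial cells, had 7.99, 7.36 and 7.17 at E7.5 and 7.63, 7.72 and 7.61 at E8.5, differing by 0.15 (limma adjusted p = 0.91), and was chosen after its values were seen. Of 5 phosphatase genes 4 were measured and none passed at an unadjusted p under 0.05. The lipid phosphatase gene *Plpp3*, listed on the array as *Ppap2b*, was outside the rule for named genes and was chosen after its values were seen. It read 8.93, 8.69 and 4.97 at E7.5 and 9.44, 9.72 and 10.51 at E8.5, differing by 2.36 (SE 1.08, limma adjusted p = 0.68). All of its E8.5 arrays lay above all E7.5 arrays, and E7.5 replicate 3 lay far below the other 2.

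In the lists of precursor metabolism, 2 genes of the first enzyme of sphingoid base synthesis, serine palmitoyltransferase, were among the 4 with a higher signal at an unadjusted p under 0.05. *Sptlc2*, a catalytic subunit, differed by 1.32 (SE 0.46, limma adjusted p = 0.56), and all E8.5 arrays (7.08 to 8.43) lay above all E7.5 arrays (5.63 to 6.82). *Sptssa*, its small subunit, differed by 1.17 (SE 0.36, limma adjusted p = 0.50), with 7.39 to 8.65 at E7.5 and 8.90 to 9.15 at E8.5. *Sptlc1*, a further subunit gene of this enzyme that was chosen after its values were seen, had -0.011. The 14 measured genes of this list had a median of -0.0053, with 7 positive and 7 negative. *Cerk*, which phosphorylates ceramide, was 0.65 higher (SE 0.19, limma adjusted p = 0.49). Of 5 ceramidase genes, 4 had a lower mean at E8.5, against 8185 of all 16523 genes. *Asah1* (-0.034) and *Asah2* (-0.89) were among the 4 and are named with their values in view. *Asah2* was high only on E7.5 replicate 1, at 8.66 against 5.22 to 5.66 elsewhere. *Acer3* differed by -0.84 (SE 0.21, limma adjusted p = 0.39) on a single probe set. Its signals of 1.88 to 2.50 at E7.5 and 1.34 to 1.48 at E8.5 lay near the lowest value of the arrays (1.04 to 1.19) and below the 5th percentile of each (3.95 to 4.07), so the size of that difference cannot be read.

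Among the signaling genes downstream of the receptors, *Gna12* and *Gnaq* were lower at E8.5 at an unadjusted p under 0.05. *Gna12*, which encodes a G protein α subunit, differed by -1.30 (SE 0.41, limma adjusted p = 0.51) and rested on 1 probe set. *Gnaq*, which couples receptors to phospholipase C, differed by -1.07 (SE 0.35, limma adjusted p = 0.53), with 8.38 to 8.46 at E7.5 and 6.80 to 8.10 at E8.5. The inhibitory α subunit gene *Gnai2* and the GTPase gene *Rac1*, through which S1PR1 signals, differed by 0.17 and 0.052, both picked with their values in view. Of 9 genes of receptor desensitization, *Grk5*, a receptor kinase gene, was 0.43 higher (SE 0.17, limma adjusted p = 0.61). The 4 measured receptor genes for lysophosphatidic acid, a related lipid, differed by -0.83 (*Lpar4*) to 0.81 (*Lpar6*), with none past an unadjusted p of 0.05.

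**Figure D5:**
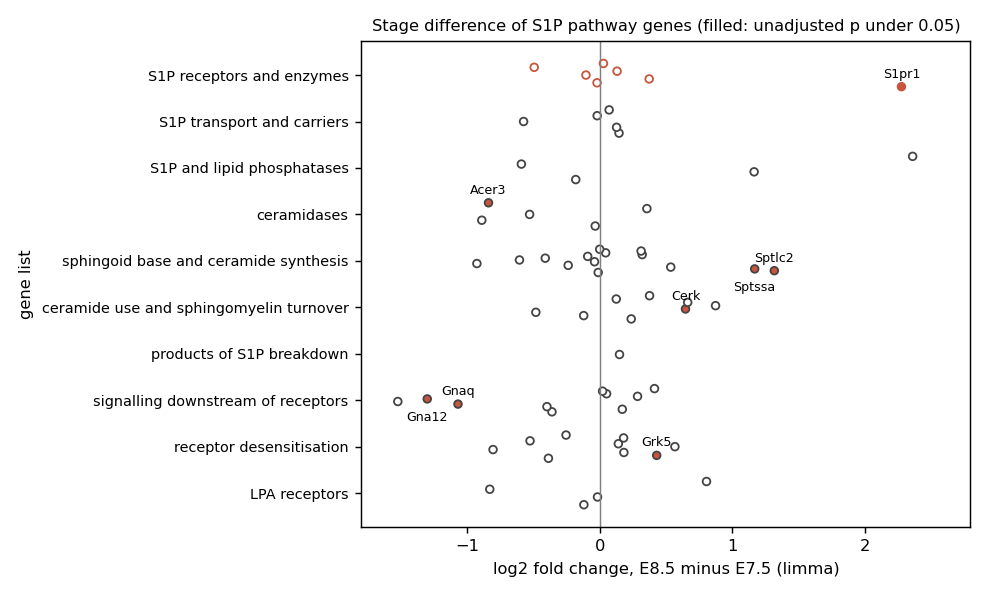
Log2 fold change, E8.5 minus E7.5 from limma (horizontal axis), of the 7 S1P genes and of 60 further pathway genes grouped by list (vertical axis). Each point is a gene, and filled points have an unadjusted p under 0.05. *S1pr1*, at 2.28, is the only filled point among the 7 S1P genes, and no gene had an adjusted p under 0.05.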

How the data were processed

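The authors hybridized amplified RNA of 6 sorted samples to Affymetrix GeneChip Mouse Exon 1.0 ST arrays and deposited, for 90788 exon probe sets, log2 signals from RMA. Affymetrix Power Tools is named in the submitters' processing notes. Software versions and how probe sets were kept: not given in the sources used here. Since RMA gives all arrays one distribution, a shift in the RNA content of the cells would not show. Signal over background is unknown without detection calls, and precision is limited by having few arrays. Nothing in the sources says whether the biological triplicates came from separate litters, so p-values cover only how these samples spread, which may be technical.

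Probe sets were named through the array annotation, in which 77669 had 1 symbol, 654 several and 12465 none listed. Genes took the median over probe sets, 16523 in all, with 3408 resting on 1 probe set. Genes and, separately, probe sets were fitted with lmFit and eBayes of limma 3.58.1 (R 4.3.3). Dim features were kept, p-values were adjusted over all features by Benjamini-Hochberg, and the threshold was 0.05. The authors also used limma for these arrays. The unmoderated test, run as an alternative, was Student's, which the paper names for other assays. The procedure was run on simulated data as a check of the code, and the share of changes it recovers is not reported here. Other pathway genes were matched by current symbol or, for 13, by RefSeq synonym (GRCm38.p6). Named were the 8 listed genes, up to 3 pathway genes per list and direction with the smallest p among those under 0.05 unadjusted, and the 3 genes closest to *S1pr1*. The members and lists were chosen with earlier results of these data known. Levels of different probe sets were not ranked against each other, except in the alternatives with the brightest probe set and with filters on signal. Alternatives covered normalization, the value per gene, filters, the variance model, the replicate block, the unmoderated test, the threshold and leaving out each array.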

Additional observations from a re-analysis of the deposited data

How the results depend on the processing

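The higher signal of *S1pr1* at E8.5 kept its direction under every alternative run except with the brightest probe set, where the log2 fold change was -0.065, and at an unadjusted p under 0.05 the unmoderated test called it (2.28). Leaving out each array gave 1.98 to 2.53. The filter on features above the median mean signal gave no value for *S1pr1*, *S1pr3* and *Sphk1*, which it removed. The sign turned for *S1pr2* after median centring of the arrays (0.027), after a further quantile normalization (0.088), with the brightest probe set (0.11) and when 1 array was left out (-0.18 to 0.23). It turned with the brightest probe set for *S1pr5* (0.26) and *Sphk2* (1.03), and with the mean over probe sets for *Sphk1* (-0.14). Leaving out each array gave -0.15 to 0.30 for *Sphk1*, -0.24 to 0.29 for *Sgpl1*, -1.04 to -0.037 for *Sphk2*, 0.25 to 0.50 for *S1pr3* and -0.15 to -0.064 for *S1pr5*. The causes were not tested.

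No S1P gene, S1P probe set or other pathway gene had an adjusted p under 0.05 in any alternative, or under 0.10 with the main settings. The unmoderated test at an unadjusted p under 0.05 called 1 gene, 4 probe sets and 5 pathway genes. For *S1pr1* the adjusted p from limma was 0.096 with an intensity trend, and 0.13 to 0.28 without 1 array. With the replicate number as a block it was 0.33 and no S1P gene passed. Same-numbered arrays of the 2 stages did not deviate together (correlations of -0.0083 to 0.0074 across genes), so the numbers were not taken as pairs. The count of all genes past the threshold was 18, and 0 with the replicate block. It was 11 with the mean over probe sets, 9 with the brightest, 10 without dim probe sets, 0 for features above the median signal, 41 at an adjusted p under 0.10, and 1216 before and 0 after adjustment with the unmoderated test. Without 1 array it was 0 to 12, with 0 without E7.5 replicate 1 or 3 or E8.5 replicate 1 or 2. Probe sets relative to the rest of their gene gave 0 calls under the settings run, which were chosen after seeing the data.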
